A study of Arabidopsis thaliana with 12 samples.

Results

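Arabidopsis seedlings that met 43 °C after an earlier, milder heat treatment were compared with seedlings that met no heat. The comparison rests on 6 of the 12 libraries of the series, 3 primed heat shock libraries and 3 control libraries, chosen by their group labels. All seedlings were wild-type Col-0, grown whole in shaken liquid culture with 16 h of light at 21 °C and 8 h of darkness at 19 °C. The protocol, given alike for all groups, lists light of 150 µmol for growth and 50 µmol for the heat treatment. Heat began 2 h into the photoperiod. Primed heat shock seedlings had 2 h at 38 °C, then 22 h at 21 °C, then 30 min at 43 °C, and were 7 days old. Heat shock seedlings, also 7 days old, had the 30 min at 43 °C alone. Priming seedlings were 6 days old and had 30 min at 38 °C alone, so their first heat was shorter on the label than that of the primed heat shock group. Control seedlings were 6 days old and unheated. Age and heat therefore change together against the control and against priming, and cannot be told apart in either comparison. Primed heat shock and heat shock seedlings had the same age. RNA was total RNA depleted of ribosomal RNA, which keeps plastid and mitochondrial transcripts, and every group had n = 3 libraries.

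Plants sense heat through unfolded proteins and other signals that release heat shock transcription factors, which bind short repeated elements in the promoters of chaperone genes. Small heat shock proteins hold unfolded proteins, and HSP70, HSP90 and HSP101 refold or disentangle them. A mild first heat makes seedlings survive a later one that would kill them, a state called acquired thermotolerance, and some genes of this response stay active or respond more strongly at the second heat, which is called heat stress memory.

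Aligned reads per library ranged over 89027278 to 152118790 in these 6 libraries, and 82.4% to 88.7% of reads aligned. Reads that did not align made up 15.4%, 15.1% and 17.6% in primed heat shock and 11.8%, 11.3% and 11.4% in control, which do not overlap. Values are CPM, counts per 1000000 reads scaled by TMM factors, which depend on transcript length and are compared here within a gene only. A change is a log2 fold change with its standard error from edgeR's quasi-likelihood test over 26159 entries and all 12 libraries, called at a Benjamini-Hochberg adjusted p under 0.05. Of all entries, 32.1% rose and 27.2% fell in primed heat shock against control, 8394 and 7125 entries, and the counts of each list are to be read against these shares. At least 2-fold changes were fewer, with 4498 raised and 2473 lowered. The median of all changes was 0.03. Scaling by library size alone moved it to -0.33 and gave 4834 raised and 10989 lowered entries, so that 30.6% of calls were increases against 54.1% with TMM factors. Against heat shock alone 12.1% of entries rose and 10.7% fell (3161 and 2806 entries, of which the lowered count was 1851 without primed heat shock replicate 1), and against priming 34.3% rose and 28.6% fell. The control, heat shock and priming libraries are the reference of 1 comparison each, all of which use the same 3 primed heat shock libraries, so the 3 sets of values are given side by side for each gene and not as separate evidence.

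Small heat shock proteins, which keep unfolding proteins from clumping, stood at very low levels without heat and were abundant in primed heat shock. Of 17 tested members 16 rose and none fell against control, with a median log2 change of 7.68 where the median of all entries was 0.03. HSP21, the small heat shock protein of plastids, held 878, 704 and 881 CPM in primed heat shock replicates 1 to 3, against 0.355, 0.331 and 0.268 CPM in control replicates. The groups did not overlap, and the log2 change was 11.34 ± 0.21 (adjusted p = 2.44e-14, edgeR). HSP18.2, of the cytosol, held 506, 515 and 471 CPM in primed heat shock, against 0.401, 0.594 and 0.485 CPM in control, and rose by 9.96 ± 0.20. HSP22.0, of the endoplasmic reticulum, held 727, 633 and 783 CPM in primed heat shock, against 0.831, 0.978 and 0.948 CPM in control, and rose by 9.60 ± 0.21. All 3 genes were thus under 1 CPM in every unheated library and at 471 CPM or more in every primed one. HSP26.5, a mitochondrial member, rose by 8.45 ± 0.20. HSP15.4 was the exception, with 15.9, 15.2 and 12.7 CPM in primed heat shock and 16.6, 15.8 and 8.89 CPM in control, which overlap.

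The same 43 °C without priming left these genes far lower. Against heat shock 13 small heat shock protein genes were higher in primed heat shock and 1 was lower, with a median of 2.99, where the median of all entries was -0.00. HSP21 averaged 821 ± 102 CPM in primed heat shock and 3.76 ± 0.614 CPM in heat shock (SD, n = 3 each), a log2 difference of 7.77 ± 0.18. HSP18.2 and HSP22.0 differed by 6.93 ± 0.17 and 6.11 ± 0.18. HSP17.6A-CI, a cytosolic member of class I, was the 1 that went the other way, with 314 ± 47.1 CPM in primed heat shock and 435 ± 61.8 CPM in heat shock (-0.47 ± 0.16, adjusted p = 0.044, edgeR). Against priming, with its shorter time at 38 °C, 15 of the 17 were lower and 1, HSP21, was higher in primed heat shock. HSP21 averaged 455 ± 47.7 CPM in priming, so primed heat shock was 0.85 ± 0.13 above it on the log2 scale. Members of class I have closely similar coding sequences, and reads shared among them were placed by the authors' alignment, so the split within the class is uncertain.

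**Figure D1:**
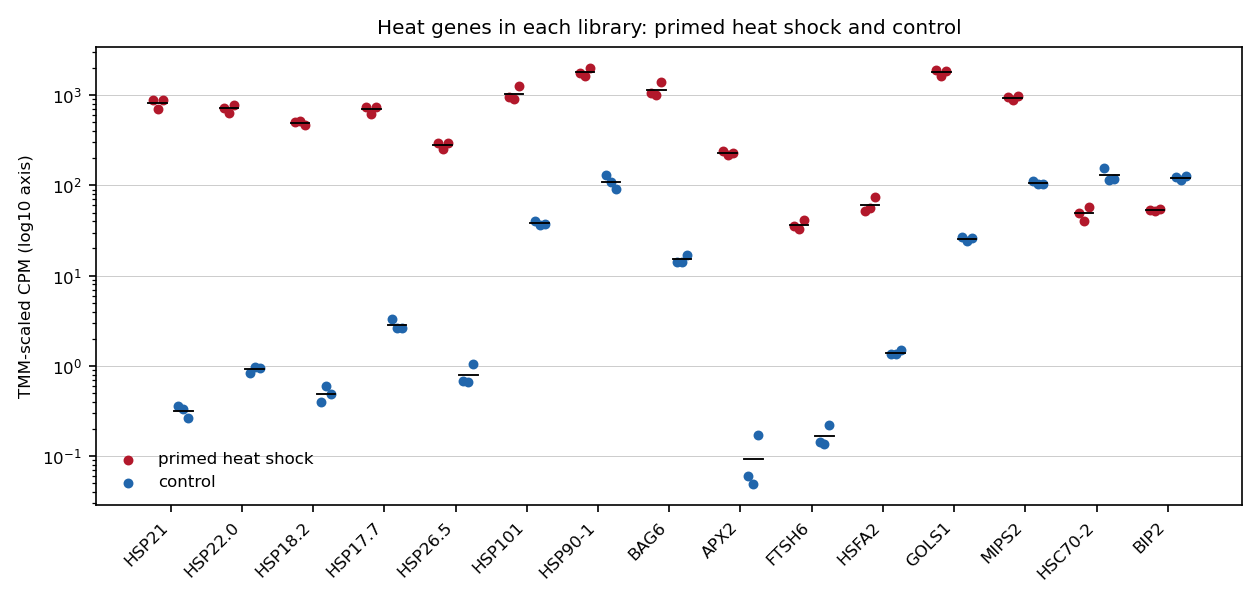
Level of 15 heat-related genes (horizontal axis) in TMM-scaled CPM on a log axis, with 1 point per library, primed heat shock left of control, and a line at the mean of 3. HSP21 reached 704 to 881 CPM in primed heat shock and stayed under 1 CPM in the control libraries, and HSC70-2 and BIP2 are lower in primed heat shock.

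Chaperones of the cytosol rose less and less evenly. Of 21 tested members 14 rose and 2 fell against control, with a median of 1.93, and 12 rose and 4 fell with library sizes alone. HSP101, the disaggregase that seedlings need for acquired thermotolerance, held 953, 909 and 1259 CPM in primed heat shock and 40.5, 36.8 and 37.2 CPM in control, and rose by 4.77 ± 0.18 (adjusted p = 1.80e-11, edgeR). It averaged 750 ± 106 CPM in heat shock and 20982 ± 434 CPM in priming, so it was only 0.47 ± 0.15 above heat shock and 4.33 ± 0.17 below priming on the log2 scale. BAG6, a co-chaperone that binds calmodulin, held 1057, 1003 and 1384 CPM in primed heat shock and 14.3, 14.1 and 17.0 CPM in control (6.25 ± 0.20). HSP70B rose by 6.47 ± 0.18 and HSP90-1, the heat-inducible HSP90 of the cytosol, by 4.02 ± 0.17.

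HSC70-1 and HSC70-2, which are constitutive HSP70 genes, went the other way. HSC70-2 held 49.0, 40.5 and 57.6 CPM in primed heat shock, against 155, 116 and 118 CPM in control, and fell by 1.40 ± 0.15 on the log2 scale (adjusted p = 1.46e-06, edgeR). HSC70-1 averaged 844 ± 105 CPM in primed heat shock, 1802 ± 104 CPM in heat shock and 1339 ± 137 CPM in control (SD, n = 3 each), and was lower than in both. HSP90-3 was 1.13 ± 0.13 lower than in heat shock on the log2 scale, but its groups overlapped against control (-0.24 ± 0.13, adjusted p = 0.132, edgeR). The list therefore split by gene against heat shock, with 10 members higher and 5 lower in primed heat shock. HSC70-1 and HSC70-2 are neighbouring near-copies, as are the constitutive HSP90 genes, so values within these sets are uncertain. Against priming all 21 tested members were lower, with a median of -3.28.

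Chaperones of plastids and mitochondria rose in 14 of 19 cases and fell in 1, with a median of 1.02, and 12 were higher than in heat shock while none was lower. CPHSC70-1, an HSP70 of the plastid stroma, held 640, 591 and 640 CPM in primed heat shock, against 122, 113 and 126 CPM in control, and rose by 2.37 ± 0.09 (adjusted p = 3.72e-11, edgeR). Its mean in heat shock was 134 ± 0.772 CPM, close to that of the control, and primed heat shock was 2.22 ± 0.09 above it. CLPB3, the plastid disaggregase related to HSP101, rose by 2.95 ± 0.12 against control and was 1.93 ± 0.12 above heat shock. HSP90-6, the mitochondrial HSP90, was the member that fell, by 0.26 ± 0.09, a call that was lost without control replicate 3, without primed heat shock replicate 1 or 3, and with upper-quartile factors. Of the list 10 rose and 2 fell with library sizes alone, with a median of 0.65.

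Among the heat shock transcription factors 8 of 21 rose and 4 fell, near the background, with a median of 0.20 that became -0.17 when libraries were scaled by size alone, where 9 fell. HSFA2, the factor that prolongs heat responses, held 51.7, 56.5 and 73.4 CPM in primed heat shock and 1.35, 1.37 and 1.49 CPM in control, and rose by 5.43 ± 0.16 (adjusted p = 1.44e-12, edgeR). Its level was nonetheless lower than in heat shock and in priming. It averaged 60.5 ± 11.4 CPM in primed heat shock, 189 ± 23 CPM in heat shock and 1602 ± 84.3 CPM in priming, which put primed heat shock 1.65 ± 0.13 below heat shock and 4.73 ± 0.15 below priming on the log2 scale. HSFA7A had the same order, 1.06 ± 0.13 below heat shock. HSFA1E, a class A1 factor of the kind that starts the response, showed the opposite order. It held 19.4, 16.9 and 19.0 CPM in primed heat shock and 1.48, 2.00 and 2.20 CPM in control (3.27 ± 0.17), and was 3.00 ± 0.17 above heat shock. Its relative HSFA1A had 6.99 ± 0.269 CPM in primed heat shock and 7.49 ± 0.529 CPM in control, which overlap. HSFA7B rose by 4.60 ± 0.15, and HSFB4 and HSFC1 fell by 1.30 ± 0.19 and 0.99 ± 0.22.

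The co-regulators of these factors rose in 4 of 8 cases and fell in 3. MBF1C, a coactivator of the heat response, rose by 3.20 ± 0.17 and averaged 322 ± 31.6 CPM in primed heat shock, 249 ± 36.9 CPM in heat shock and 35.1 ± 7.01 CPM in control. DREB2A, which activates HSFA3, rose by 1.84 ± 0.14 and was 0.77 ± 0.13 below heat shock. HSFA3 had 4.24, 3.24 and 4.04 CPM in primed heat shock and 3.35, 3.41 and 3.22 CPM in control, which overlap. Of the 3 that fell, MBF1A, MBF1B and HSBP, just 1 was still called when primed heat shock replicate 1 or replicate 3 was left out.

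Some genes linked to heat stress memory exceeded both single treatments. Of 11 members, some of which the chaperone lists also hold, 9 rose and none fell against control, with a median of 5.43. Against heat shock 8 were higher and 1, HSFA2, was lower, with a median of 3.62. Against priming 4 were higher and 5 lower, and the 4 were HSP21, APX2, FTSH6 and MIPS2.

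APX2, a cytosolic ascorbate peroxidase that removes hydrogen peroxide, held 241, 217 and 228 CPM in primed heat shock, against 0.0605, 0.0487 and 0.173 CPM in control. It rose by 11.22 ± 0.30 (adjusted p = 1.35e-11, edgeR) and averaged 1.45 ± 0.301 CPM in heat shock and 38.1 ± 4.13 CPM in priming. Every primed heat shock library was thus above every library of the other 3 groups, by 7.30 ± 0.24 over heat shock and 2.58 ± 0.19 over priming. FTSH6, the plastid protease that degrades HSP21 during recovery, held 35.2, 32.5 and 40.9 CPM in primed heat shock and 0.144, 0.136 and 0.223 CPM in control, and rose by 7.74 ± 0.18. It was 3.81 ± 0.14 above heat shock and 1.02 ± 0.12 above priming. MIPS2, an enzyme of inositol synthesis, held 959, 880 and 975 CPM in primed heat shock and 112, 104 and 104 CPM in control (3.14 ± 0.10). Heat shock alone had 76.5 ± 6.55 CPM, below the control, so primed heat shock was 3.62 ± 0.11 above it. HSA32, which delays the decay of acquired thermotolerance, rose by 4.57 ± 0.13 and was 2.86 ± 0.12 above heat shock and 0.66 ± 0.11 below priming. XTR6, a cell wall enzyme, rose by 0.93 ± 0.24.

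Heat shock factors bind repeats of GAA and TTC. The 200 bases before the annotated starts are therefore shown for 3 of the 4 memory genes that were higher in primed heat shock than in every other group. They are also shown for HSFA2, which was lower than in heat shock and priming. They were read from the RefSeq assembly TAIR10.1 in the 5′ to 3′ direction of the gene. Capitals mark GAANNTTC and TTCNNGAA, each of which is its own reverse complement, and neighbouring matches can share 3 bases. APX2 is on the plus strand at chr3:2955956-2956155, HSP21 on the minus strand at chr4:13819972-13820171, FTSH6 on the minus strand at chr5:4952804-4953003 and HSFA2 on the plus strand at chr2:11135424-11135623.
APX2: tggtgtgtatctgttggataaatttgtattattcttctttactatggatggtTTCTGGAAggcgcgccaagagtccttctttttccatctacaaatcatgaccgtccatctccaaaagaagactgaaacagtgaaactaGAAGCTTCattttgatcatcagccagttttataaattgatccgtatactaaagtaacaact
HSP21: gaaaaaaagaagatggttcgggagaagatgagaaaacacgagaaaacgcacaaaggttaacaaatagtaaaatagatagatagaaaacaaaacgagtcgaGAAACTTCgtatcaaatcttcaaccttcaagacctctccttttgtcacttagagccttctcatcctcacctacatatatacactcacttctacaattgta
FTSH6: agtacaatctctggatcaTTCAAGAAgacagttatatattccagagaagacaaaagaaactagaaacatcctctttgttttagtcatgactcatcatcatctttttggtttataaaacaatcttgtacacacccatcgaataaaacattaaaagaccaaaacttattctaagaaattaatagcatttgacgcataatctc
HSFA2: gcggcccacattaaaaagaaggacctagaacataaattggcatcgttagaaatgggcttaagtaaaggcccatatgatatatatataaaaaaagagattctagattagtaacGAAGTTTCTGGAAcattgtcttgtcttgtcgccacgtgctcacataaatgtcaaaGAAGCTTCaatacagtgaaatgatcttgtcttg
APX2 had 2 matches, HSP21 and FTSH6 had 1 each, and HSFA2 had 3, of which 2 overlap. GOLS1, also read, had 2. The windows of HSP18.2, HSP22.0, HSP101, BIP3 and MIPS2 had none, which says only that these letters are not in these bases. MIPS2 is the memory gene higher than in every other group whose window is not shown. Either motif was present before 3439 of 26711 protein-coding genes (12.9%), 7 of the 17 small heat shock protein genes (41.2%), 5 of the 11 memory genes (45.5%), 4 of 22 cytosolic chaperone genes (18.2%) and 5 of 21 heat shock factor genes (23.8%). None of the 15 genes for suberin, cutin and wax had a match. The motif windows were chosen after the expression values were seen, and a match is a description of letters, not a bound site.

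**Figure D2:**
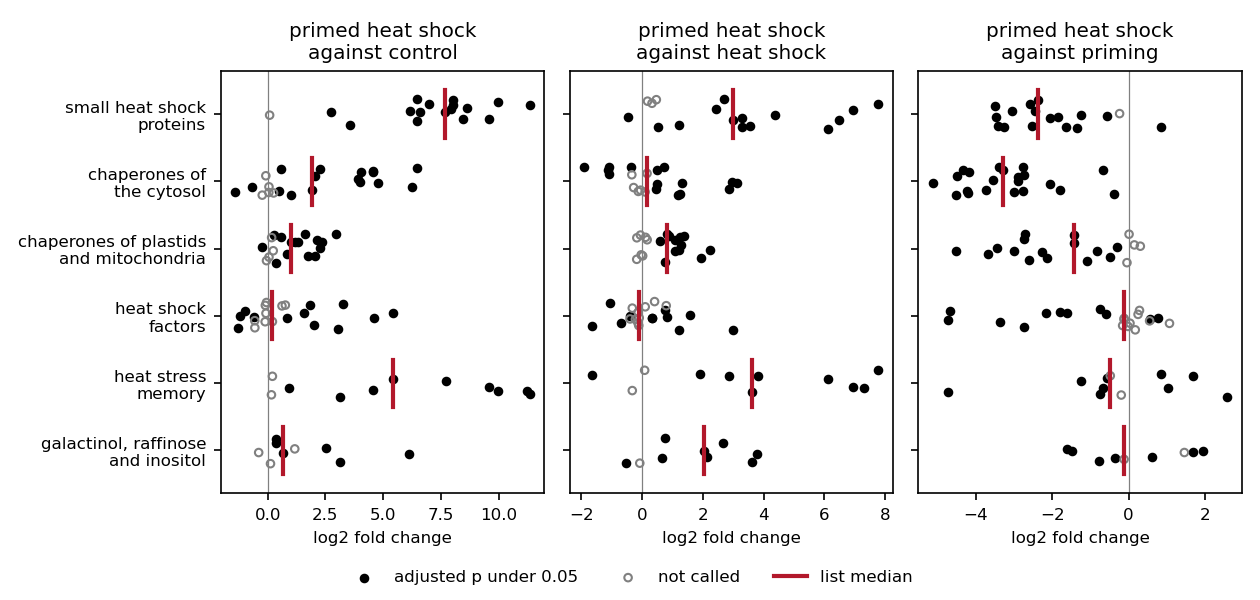
Log2 fold change of primed heat shock against control, heat shock and priming (1 panel each) for the tested members of 6 gene lists, with filled points at an adjusted p under 0.05, open points otherwise and a line at the list median. Small heat shock proteins lie at a median of 7.68 against control, 2.99 against heat shock and -2.38 against priming, and the memory list at 5.43, 3.62 and -0.48.

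Chaperones of the endoplasmic reticulum moved against those of the cytosol. Of 20 members of the unfolded protein response list 12 fell and 5 rose against control, with a median of -0.53, and with library sizes alone 14 fell and 3 rose. BIP2, the main HSP70 of this compartment, held 52.9, 51.9 and 54.5 CPM in primed heat shock, against 122, 114 and 128 CPM in control, and fell by 1.20 ± 0.09 on the log2 scale (adjusted p = 4.68e-08, edgeR). SHD, its HSP90, fell by 0.96 ± 0.10. BIP3, the stress-inducible HSP70, held 6.16, 7.28 and 9.59 CPM in primed heat shock and 0.0983, 0.165 and 0.312 CPM in control, and rose by 5.28 ± 0.28. Reads that these HSP70 copies share are an uncertainty for each. Heat shock without priming had 57.3 ± 4.44 CPM for BIP2 and 7.88 ± 0.759 CPM for BIP3, and primed heat shock differed from it by -0.11 ± 0.09 and -0.04 ± 0.22, short of the threshold. In priming BIP2 averaged 763 ± 18.2 CPM and BIP3 0.250 ± 0.0420 CPM. CNX2, a calnexin that folds glycoproteins, rose by 1.49 ± 0.13 and was 1.40 ± 0.13 above heat shock. ERDJ3A, a heat-inducible partner of the BIP proteins, rose by 2.26 ± 0.12. BZIP60, a transcription factor of this response, had 39.8 ± 6.51 CPM in primed heat shock and 37.5 ± 0.356 CPM in control, which overlap.

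Genes for protective metabolites and antioxidants rose more often than they fell. Of 9 genes for galactinol, raffinose and inositol 6 rose and none fell, and 7 were higher than in heat shock with a median of 2.05. Scaled by library size alone, 4 rose and 1 fell, and 1 fell without control replicate 3. GOLS1, the heat-inducible galactinol synthase, held 1911, 1617 and 1836 CPM in primed heat shock and 26.8, 24.1 and 25.9 CPM in control (6.13 ± 0.16, adjusted p = 2.74e-13, edgeR). It averaged 130 ± 19.6 CPM in heat shock, 3.79 ± 0.14 below primed heat shock on the log2 scale. RS4, which makes stachyose and raffinose, rose by 2.54 ± 0.17 and was about equally far above heat shock and priming, by 2.12 ± 0.17 and 1.94 ± 0.17. Of 18 oxidative stress genes 11 rose and none fell, with a median of 0.50, and with library sizes alone 6 rose and 2 fell, with a median of 0.13. ZAT12, a zinc-finger regulator, rose by 2.12 ± 0.26 and CSD3, the peroxisomal copper and zinc superoxide dismutase, by 1.75 ± 0.10. APX1, the constitutive cytosolic ascorbate peroxidase, had 357, 287 and 293 CPM in primed heat shock and 296, 215 and 225 CPM in control, which overlap (0.35 ± 0.15, adjusted p = 0.0565, edgeR). It was called with the harvest date as a block (adjusted p = 0.00357, edgeR) and without control replicate 1 (0.49, adjusted p = 0.0130, edgeR). DESeq2 (0.36), upper-quartile factors (0.42) and a fit of nuclear loci only (0.38) called it too. With library sizes alone it was -0.01 and not called. In the vitamin B6 list 1 of 4 genes rose (2 with the block or with upper-quartile factors), PDX1.2, a pseudoenzyme that supports pyridoxine synthesis under heat (3.78 ± 0.17), and it was 1.02 ± 0.16 below heat shock.

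Genes of abscisic acid and dehydration fell more often than they rose, 12 against 4 of 20. RD22, a dehydration-responsive gene, held 36.3, 37.5 and 33.4 CPM in primed heat shock and 152, 130 and 233 CPM in control, and fell by 2.26 ± 0.22 on the log2 scale (adjusted p = 2.70e-06, edgeR). COR47, a dehydrin, rose by 0.74 ± 0.18, and with library sizes alone none of the list rose and 13 fell. Several of these calls leaned on control replicate 3. COR15A, for example, was called at -3.09, and its value was -0.52 and not called without that library. RD29A held 10.9, 10.7 and 11.2 CPM in primed heat shock and 15.5, 19.7 and 70.4 CPM in control (-1.68 ± 0.52, adjusted p = 0.0200, edgeR). Its call was kept without control replicate 3. Neither COR15A nor RD29A was called without any 1 of the primed heat shock libraries or when the 2 groups were fitted alone. P5CS1, the first enzyme of proline synthesis, also had its highest control value in replicate 3, at 29.5 CPM. The list counted 7 lowered genes without control replicate 3, 6 without primed heat shock replicate 2, 8 without primed heat shock replicate 1, and 2 raised genes without control replicate 1 or 2 or primed heat shock replicate 1 or 3.

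The RNA processing lists had small medians, while some single members changed more. SR splicing factors, which choose splice sites, rose in 12 of 19 cases and fell in none, with a median of 0.37 that was 0.01 when libraries were scaled by size alone, where 4 rose. SR45A rose by 1.75 ± 0.12. SR30 held 88.5, 92.9 and 81.5 CPM in primed heat shock and 26.5, 30.6 and 30.4 CPM in control (1.58 ± 0.10), and was 1.41 ± 0.10 above heat shock. Of 14 genes of mRNA decay and stress granules 4 rose and 7 fell, and 2 rose without control replicate 2 or 3 or primed heat shock replicate 3, or when the 2 groups were fitted alone. UBP1B, an RNA-binding protein of stress granules, rose by 1.13 ± 0.10. CAF1A, a deadenylase, had 44.0, 34.0 and 106 CPM in primed heat shock and 19.4, 14.6 and 19.3 CPM in control, with replicate 3 well above the other primed libraries. None of 16 cytosolic ribosomal protein genes rose and 3 fell, while 5 were higher than in heat shock. The count of 3 became 5 without control replicate 2 and 10 with library sizes alone, and 1 or 2 rose under 7 other alternatives. Of 12 ribosome biogenesis genes 5 rose and 1 fell, 3 rose without control replicate 1, and the median of 0.16 became -0.20 with library sizes alone. Of 15 ubiquitin and proteasome genes 1 rose and 3 fell, and the count raised ranged over 0 to 3 across the alternatives. Of 12 autophagy genes 3 rose and 3 fell, near the shares of all entries. In the mitochondrial dysfunction list 2 of 10 rose and 2 fell, and 1 fell under 7 of the alternatives. No ubiquitin or autophagy gene rose with library sizes alone, 11 and 7 fell, and 4 of the dysfunction list fell. UPOX, a marker of mitochondrial stress, rose by 2.71 ± 0.25. Among 5 sugar starvation genes 3 rose and 1 fell.

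Division and warm-growth genes fell more often than they rose. Of 19 cell division and DNA replication genes 11 fell and 4 rose, with a median of -0.62. CDKA;1, the main cell cycle kinase, held 9.86, 11.8 and 9.69 CPM in primed heat shock and 22.1, 22.4 and 23.2 CPM in control, and fell by 1.11 ± 0.10 on the log2 scale. MCM2, a subunit of the replicative helicase, fell by 1.32 ± 0.17. CYCD3;1, a cyclin of the entry into the cycle, rose by 1.46 ± 0.17 and CDKB1;1 by 1.34 ± 0.19. Of 19 tested genes none was lower and 2 were higher than in heat shock. Of 21 genes for light signalling, warm growth and auxin 10 fell and 2 rose, with 4 raised when control replicate 3 was left out and 1 with library sizes alone. YUC8, an auxin synthesis enzyme, fell by 2.05 ± 0.14 and IAA3, an auxin response repressor, by 1.22 ± 0.13. PIF7, a thermosensory transcription factor, rose by 0.81 ± 0.14, while PIF4 had 17.9 ± 0.728 CPM in primed heat shock and 16.5 ± 3.17 CPM in control, which overlap, and was called without control replicate 3 (0.25).

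Of 18 clock genes 6 rose and 4 fell, near the shares of all entries, 32.1% and 27.2%. Their median of 0.10 turned to -0.26 with library sizes alone, where 2 rose and 7 fell. CCA1 and LHY, the paired morning factors, moved apart. CCA1 held 163, 164 and 123 CPM in primed heat shock and 92.2, 103 and 76.5 CPM in control (0.73 ± 0.17, not called with library sizes alone), whereas LHY held 89.6, 122 and 77.9 CPM in primed heat shock and 166, 162 and 159 CPM in control (-0.75 ± 0.20). Both were above heat shock, by 1.38 ± 0.17 and 0.77 ± 0.20. FKF1, a blue-light receptor of the afternoon, rose by 3.04 ± 0.21 and LNK2, a coactivator of clock genes, by 1.43 ± 0.20.

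Nuclear genes for photosynthesis rose in 21 of 48 cases and fell in 1. Their median of 0.27 became -0.09 with library sizes alone, where 6 rose and 9 fell. RCA, which activates RuBisCO, held 4475, 3908 and 4104 CPM in primed heat shock and 2265, 2423 and 1720 CPM in control (0.96 ± 0.15, adjusted p = 5.96e-05, edgeR). PSBO2, of the oxygen-evolving complex, rose by 1.37 ± 0.13. LHCB1.4, an antenna protein with near-identical copies, was the 1 that fell, by 1.06 ± 0.22. Chlorophyll and carotenoid genes rose in 10 of 18 cases and fell in none, with a median of 0.32, and 14 were higher than in heat shock. With library sizes alone 3 rose and 4 fell, with a median of -0.04, and 1 fell with the harvest date as a block or without primed heat shock replicate 1. PORC, a protochlorophyllide reductase, rose by 1.10 ± 0.10 and CHLH, the large subunit of magnesium chelatase, by 0.85 ± 0.12. Among 10 light stress genes and thylakoid proteases 6 rose and none fell, with 3 raised and 1 lowered with library sizes alone. EGY3, a plastid protease-like protein, held 100, 85.4 and 107 CPM in primed heat shock and 1.70, 2.03 and 2.74 CPM in control (5.49 ± 0.18). ELIP1, which binds chlorophyll under light stress, held 803, 555 and 616 CPM in primed heat shock and 253, 165 and 116 CPM in control (1.89 ± 0.24). RPOTP, the phage-type RNA polymerase of plastids, held 53.1, 52.8 and 56.0 CPM in primed heat shock and 12.6, 15.0 and 14.7 CPM in control (1.94 ± 0.09). It led a list of 9 organellar polymerases and sigma factors in which 4 rose and none fell, while with library sizes alone 1 rose, 1 fell and the median was -0.09.

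**Figure D3:**
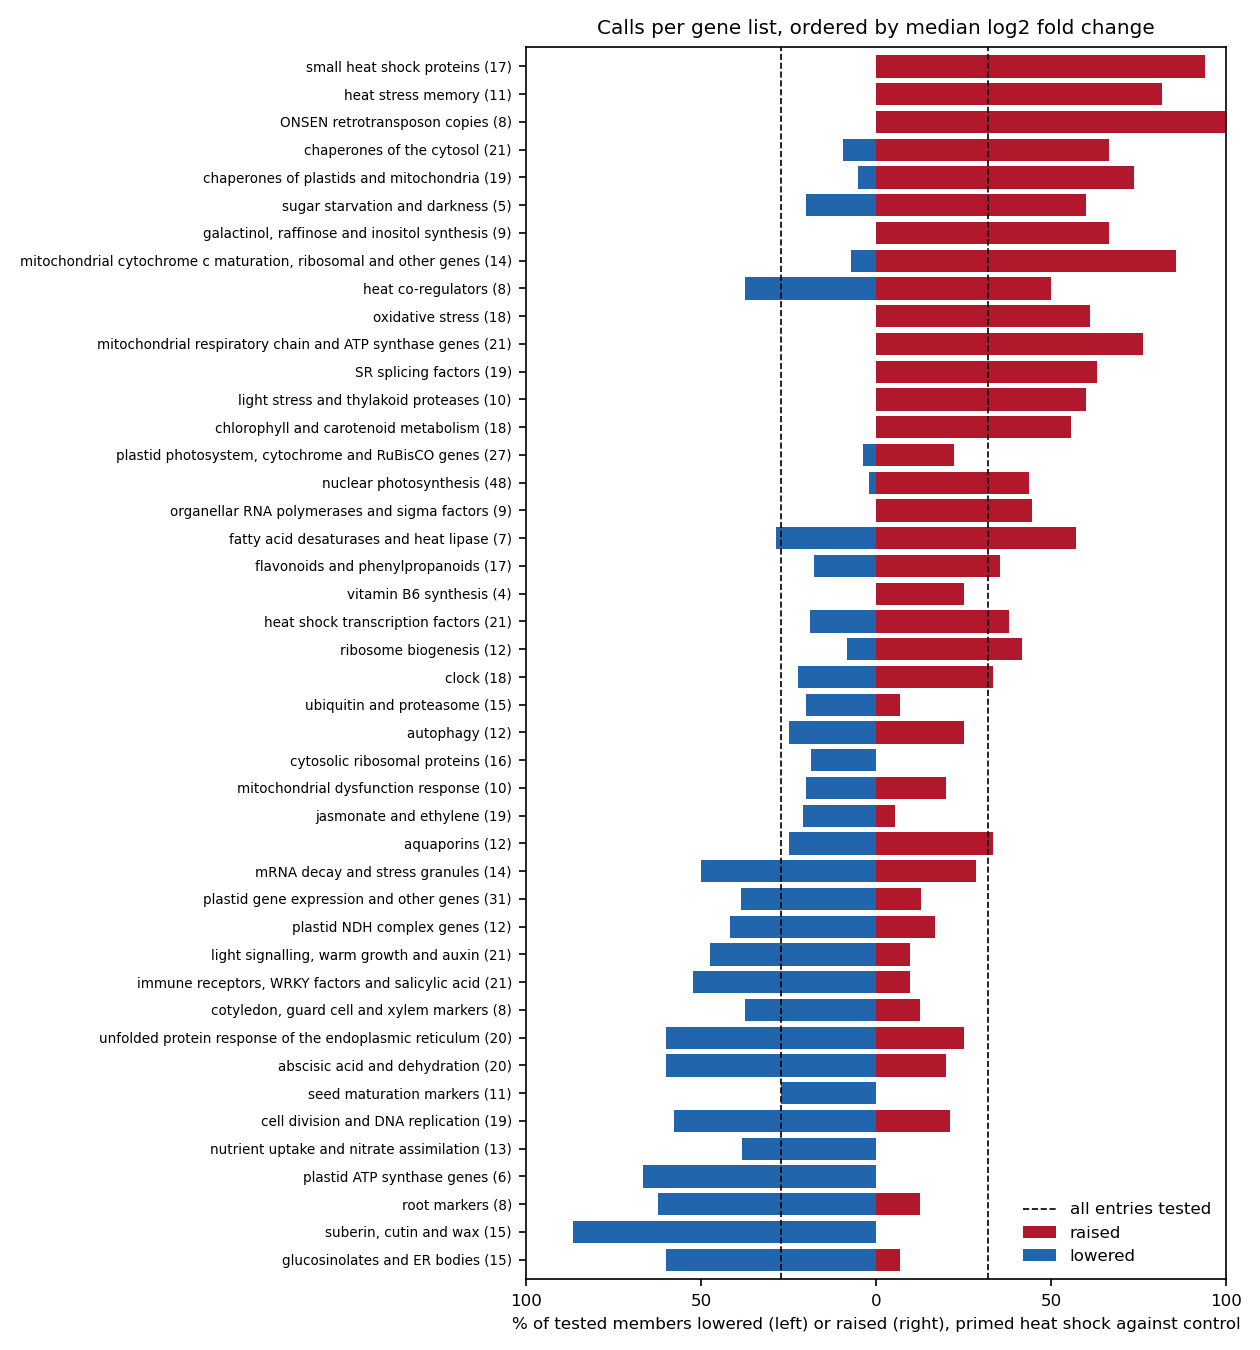
Share in percent of tested members of each gene list that rose (right of 0) or fell (left of 0) in primed heat shock against control, with lists ordered by median and dashed lines at the shares of all 26159 entries, 32.1% raised and 27.2% lowered. Small heat shock proteins and ONSEN copies rose in nearly all members, and suberin, cutin and wax genes fell in 13 of 15.

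Barrier genes were mostly lower, and the defence lists differed among themselves. Of 15 genes for suberin, cutin and wax 13 fell and none rose, with a median of -1.04. GPAT5, an acyltransferase of suberin synthesis, held 5.77, 4.64 and 7.89 CPM in primed heat shock and 21.0, 22.9 and 44.6 CPM in control, and fell by 2.28 ± 0.31 on the log2 scale (adjusted p = 9.32e-05, edgeR). CYP86B1, which hydroxylates very long chains for suberin, fell by 2.16 ± 0.22. CER1, of alkane synthesis, was called at -2.51 ± 0.91 with libraries that overlap, and its value was -0.68 and not called without control replicate 3. It was not called without any 1 of the primed heat shock libraries either. In bulk RNA, fewer cells of a type and less RNA per cell cannot be told apart. Root markers moved in the same libraries. Of 8 root markers 5 fell and 1 rose, with CASP1, of the endodermal barrier, at 19.6, 15.9 and 24.4 CPM in primed heat shock and 58.1, 40.9 and 35.3 CPM in control (-1.17 ± 0.32), and COBL9, of root hairs, at -1.57 ± 0.23. Their summed level nevertheless ranged over 697.8 to 719.6 CPM in primed heat shock and 455.3 to 624.5 CPM in control, mostly from PYK10, the 1 that rose (0.54 ± 0.12, not called with library sizes alone). No root marker was at 0 in either group, and the part of root material in these decreases was not tested.

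Of 15 tested genes for glucosinolates and ER bodies 9 fell and 1 rose, with a median of -1.06, and 11 fell and none rose with library sizes alone. The summed level of the list ranged over 861 to 900 CPM in primed heat shock and 887 to 1096 CPM in control, which overlap. BGLU21, a beta-glucosidase of ER bodies, held 13.3, 13.7 and 14.7 CPM in primed heat shock and 162, 146 and 142 CPM in control, and fell by 3.43 ± 0.12 (adjusted p = 1.21e-11, edgeR). It averaged 15.6 ± 3.02 CPM in priming and 42.8 ± 1.99 CPM in heat shock. Its near-copy BGLU22 fell by 2.98 ± 0.14. TGG1, a myrosinase, fell by 2.13 ± 0.10 and was not called against heat shock (-0.16 ± 0.10) but was 2.15 ± 0.10 below priming on the log2 scale. Of 21 tested immune receptor, WRKY and salicylic acid genes 11 fell and 2 rose, and 14 were lower and none higher than in heat shock, with a median of -0.67. With library sizes alone 16 fell and 1 rose against control, and 9 and 1 when the 2 groups were fitted alone. CBP60G, a regulator of salicylic acid synthesis, held 20.2, 15.2 and 17.7 CPM in primed heat shock and 69.8, 45.8 and 55.1 CPM in control (-1.69 ± 0.19), and was 1.47 ± 0.19 below heat shock on the log2 scale. FLS2, the receptor for bacterial flagellin, averaged 10.4 ± 2.58 CPM in primed heat shock, 43.0 ± 12.6 CPM in heat shock and 13.6 ± 1.77 CPM in control. It overlapped with control and was 2.05 ± 0.25 below heat shock, and against control it was called as lower with the harvest date as a block. WRKY40 rose by 1.80 ± 0.50 with 17.0, 13.3 and 49.7 CPM in primed heat shock, so its size leaned on replicate 3. The call was lost when the 2 groups were fitted alone. Of 19 jasmonate and ethylene genes 1 rose and 4 fell, both under the shares of all entries. The lowered count was 7 when the 2 groups were fitted alone or without the filter on low counts, and 13 with library sizes alone. EIN3, the ethylene response factor that starts this pathway in the nucleus, fell by 0.80 ± 0.10.

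Of 17 flavonoid and phenylpropanoid genes 6 rose and 3 fell, with a median of 0.26 that was -0.09 with library sizes alone (3 raised, 7 lowered), and 9 were higher and none lower than in heat shock. LDOX and DFR, which make anthocyanidins, rose by 1.72 ± 0.31 and 1.71 ± 0.30, and CHS, the entry enzyme of flavonoids, by 0.94 ± 0.21. PAL1, the entry enzyme of all phenylpropanoids, fell by 0.79 ± 0.21. The lowered count was 1 without control replicate 1 or primed heat shock replicate 2, and 5 with the harvest date as a block. Of 13 genes for nutrient uptake 5 fell and none rose. Without control replicate 3, or when the 2 groups were fitted alone, 8 fell, and with library sizes alone all 13 fell, with a median of -1.21. HAK5, a potassium transporter, held 47.2, 54.4 and 41.0 CPM in primed heat shock and 132, 132 and 80.1 CPM in control (-1.27 ± 0.17). Aquaporins, the water channels, rose in 4 and fell in 3 of 12 cases, near the shares of all entries, and 7 were higher than in heat shock. The lowered count was 5 without control replicate 2 or by DESeq2, 1 without primed heat shock replicate 2 and 8 with library sizes alone, where 2 rose. PIP2;7 rose by 1.18 ± 0.12 and TIP2;2 fell by 1.29 ± 0.16. Among 7 desaturase and lipase genes 4 rose (2 with library sizes alone) and 2 fell. HIL1, a lipase that remodels plastid lipids in heat, rose by 1.16 ± 0.10, and FAD6, of plastids, by 0.92 ± 0.09, whereas FAD3, of the endoplasmic reticulum, fell by 1.27 ± 0.11.

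Of 11 tested seed maturation markers 3 fell and none rose (5 fell without control replicate 2), with summed levels of 69.5 to 73.6 CPM in primed heat shock and 72.5 to 127 CPM in control. OLEO2, an oil body protein, fell by 1.11 ± 0.16. Of 8 markers of cotyledon, guard cells and xylem 3 fell and 1 rose, and with library sizes alone 7 fell and none rose. Their summed level ranged over 2616 to 3080 CPM in primed heat shock and 2050 to 2586 CPM in control, and no marker of this list was at 0, so leaf, root and vascular markers of a whole seedling were present in both groups.

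Transcripts from outside protein-coding genes rose far more often than they fell. Of 1028 noncoding entries tested 57.4% rose and 3.99% fell, and of 1490 transposon or intergenic entries 50.4% rose and 5.17% fell, against 29.5% and 29.8% of 23383 nuclear loci. Their medians were 1.39, 0.94 and -0.02. Nuclear loci below a mean of 1 CPM leaned the same way, with 38.1% raised and 20.6% lowered, whereas loci at 10 to 100 CPM had 24.4% raised and 34.9% lowered. Entries that passed the filter on low counts only through heated libraries are among these, and for them an increase follows from the filter. Few of the entries differed from heat shock alone, 4.67% of the noncoding ones raised and 3.02% lowered. The noncoding entry At2NC049400 held 8.65, 6.69 and 7.20 CPM in primed heat shock and 0.272, 0.131 and 0.212 CPM in control (5.23 ± 0.23). At4NC056500 held 14.7, 13.5 and 20.9 CPM in primed heat shock, and 2 of the 3 control libraries had no read of it. Of 45 tested microRNA precursors 22 rose and 2 fell, with ath-MIR5642b at 0.86 ± 0.16. Of the precursors of miR398 and miR156, which act on copper proteins and on SPL factors, 3 of 10 passed the filter on low counts. Neither edgeR nor DESeq2 called any of them with all libraries, and 0 had an unadjusted p under 0.05, but 1 rose without control replicate 3. The counting strand was not given in the sources used here, so reads of an entry and of a gene it overlaps cannot be told apart.

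ONSEN, a copia-type retrotransposon with heat-responsive ends, rose in all 8 tested copies, with a median of 2.67, and 7 were higher than in heat shock with a median of 1.49. The copy ONSEN-e held 5.79, 6.05 and 8.96 CPM in primed heat shock and 0.348, 0.477 and 0.468 CPM in control, and rose by 3.99 ± 0.19 (adjusted p = 3.07e-10, edgeR). It averaged 0.920 ± 0.0771 CPM in heat shock and 4.94 ± 0.216 CPM in priming. The smallest change was that of ONSEN-g, 0.57 ± 0.18, a call that was lost without control replicate 3 or primed heat shock replicate 3 and with library sizes alone. Copies share most of their sequence, so a rise of 1 copy may be counted on another.

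The plastid took 49.2%, 45.7% and 51.9% of counts in primed heat shock libraries, against 41.9%, 39.8% and 35.5% in control libraries. The means were 48.9% ± 3.10 and 39.1% ± 3.25 (SD, n = 3 each), a difference of 9.87 percentage points. The groups did not overlap, and the exact two-sided permutation p of 0.1 is the smallest that 3 libraries against 3 allow. psbA, the D1 protein of photosystem II, took 36.2%, 33.8% and 38.0% of counts in primed heat shock and 28.6%, 25.8% and 21.9% in control. Its difference of 10.6 points exceeded that of the whole plastid, so the mean share of the other plastid entries together was slightly lower in primed heat shock. With psbA taken out of both the plastid counts and the total, the difference in the plastid share was 1.96 points (exact permutation p = 0.3). Heat shock alone had 54.1% ± 3.93 and priming 44.1% ± 3.65.

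Within the plastid, the medians of the photosystem and ATP synthase lists had opposite signs with TMM factors. Of 27 genes for the photosystems, the cytochrome complex and RuBisCO 6 rose and 1 fell. Both counts are under the shares of all entries, 32.1% raised and 27.2% lowered. Their median was 0.29, against -0.13 over all 90 plastid genes tested. The median was -0.09 with library sizes alone, where 2 rose and 8 fell, and 3 rose without control replicate 3 or primed heat shock replicate 1 or 3. Scaled within the plastid, 15 rose and 3 fell. psbA itself rose by 0.87 ± 0.24 (adjusted p = 0.00545, edgeR), and rbcL, the large RuBisCO subunit, by 0.63 ± 0.23, a call that was lost without control replicate 2 or 3 or primed heat shock replicate 1 or 3. None of the 6 ATP synthase genes rose and 4 fell, with a median of -0.89. atpF held 291, 237 and 342 CPM in primed heat shock and 836, 840 and 681 CPM in control, and fell by 1.44 ± 0.19 on the log2 scale (adjusted p = 1.74e-05, edgeR). atpI fell by 1.15 ± 0.14 and atpB by 0.94 ± 0.18. All 6 were lower than in priming, with a median of -1.67, and none was called against heat shock, where atpF averaged 291 ± 49.1 CPM. Of 12 NDH genes 2 rose and 5 fell, and 3 fell when control replicate 1 or 2 or primed heat shock replicate 1 or 2 was left out or with upper-quartile factors, while 8 fell with library sizes alone. Scaled within the plastid, 4 rose and 7 fell. The 2 that rose were the identical copies of ndhB in the inverted repeat. Of 31 genes for plastid gene expression and other functions 12 fell and 4 rose, and 10 were higher than in heat shock. The raised count was 2 without control replicate 1, 2 or 3, without primed heat shock replicate 1 or 3 and without the filter on low counts, and with library sizes alone none rose and 25 fell. matK, the maturase encoded in an intron, fell by 0.99 ± 0.18.

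**Figure D4:**
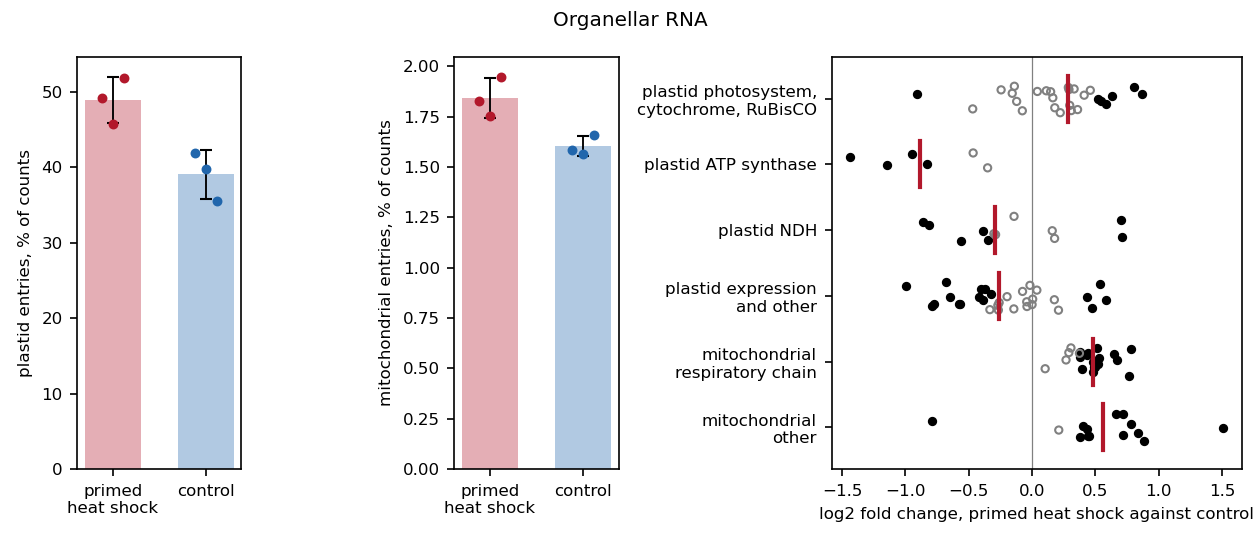
Plastid and mitochondrial shares of counts in percent (points are libraries, bars the mean, whiskers the SD, n = 3), and log2 fold changes in primed heat shock against control of organellar genes in 6 lists (filled points called, open points not, line at the median). The plastid share was 45.7% to 51.9% in primed heat shock and 35.5% to 41.9% in control, and the 6 ATP synthase genes of the plastid lie below 0.

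Most mitochondrial entries rose with TMM factors. Of 123 mitochondrial entries tested 111 rose and 1 fell, with a median of 1.16. The mitochondrial share was 1.83%, 1.76% and 1.95% in primed heat shock and 1.58%, 1.56% and 1.66% in control. That difference of 0.241 points did not overlap between groups (exact two-sided permutation p = 0.1, the smallest possible), and it was 0.0877 points (p = 0.7, exact permutation) when ribosomal RNA was kept in. Of 21 respiratory chain and ATP synthase genes 16 rose and none fell, with a median of 0.48, and with library sizes alone 4 rose, with a median of 0.10. cox1, a subunit of cytochrome c oxidase, held 2474, 2009 and 2771 CPM in primed heat shock and 1504, 1374 and 1382 CPM in control (0.77 ± 0.15). Of 14 genes for cytochrome c maturation, ribosomes and other functions 12 rose and 1 fell, and with library sizes alone 7 rose and 1 fell. The mitochondrial rps7 rose by 1.51 ± 0.12, and ccmC fell by 0.79 ± 0.16. Scaled within the mitochondrion the respiratory list had a median of -0.33 with none raised and 19 lowered, and the second list had 1 raised and 8 lowered. Among the organellar entries outside the lists at 20 CPM or more the largest called increases were those of 3 open reading frames without a name, ATMG01090 by 1.23 ± 0.13, ATMG00040 by 1.10 ± 0.14 and ATMG00400 by 1.08 ± 0.13. Against heat shock none of the 21 respiratory genes was higher and 1 was lower, and against priming 17 were lower.

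Outside the lists the 12 largest increases among loci with a symbol at 20 CPM or more were as follows, ARLA1A and RABA2b being described further on. ABCF2, a protein of the ABC family, held 23.9, 20.0 and 17.4 CPM in primed heat shock and 1.46, 1.51 and 0.953 CPM in control (3.97 ± 0.18), and was 4.24 above heat shock. AGAL1, an alpha-galactosidase, rose by 3.78 ± 0.18 and was 3.69 above heat shock. SYTD, a synaptotagmin that tethers membranes, held 47.1, 52.1 and 42.8 CPM in primed heat shock and 7.46, 7.64 and 10.5 CPM in control (2.47 ± 0.18), with 3.33 ± 0.19 over heat shock. CYP81G1, a cytochrome P450, had the largest of these increases, 6.42 ± 0.39, but did not differ from heat shock beyond the threshold (0.29, adjusted p = 0.538, edgeR). UBP27, a ubiquitin protease, rose by 3.49 ± 0.15, PTAC17, of the plastid chromosome, by 3.11 ± 0.10, ZF3, a zinc-finger protein, by 3.01 ± 0.16, 5PTase12, an inositol phosphatase, by 2.99 ± 0.13, FBS1, an F-box protein of stress, by 2.83 ± 0.29, and PCB2, of chlorophyll synthesis, by 2.49 ± 0.14.

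The 12 largest decreases among such loci were those of the following genes. ELP, an extensin-like protein, held 4.27, 6.95 and 6.24 CPM in primed heat shock and 49.6, 43.7 and 80.4 CPM in control (-3.31 ± 0.24). PELPK1, a wall protein, fell by 3.23 ± 0.38, XTH19, which cuts and joins xyloglucan, by 3.04 ± 0.27, FLA8, an arabinogalactan protein, by 2.97 ± 0.22, and GH9B13, a glucanase, by 2.60 ± 0.16. BGLU34, a myrosinase, fell by 2.89 ± 0.19, GLL22, a lipase-like protein, by 2.79 ± 0.15, NAC036 by 2.60 ± 0.29 and PLAT2 by 2.47 ± 0.12. ECS1, MLP28 and LAC5 fell by 3.22 ± 0.39, 2.69 ± 0.56 and 2.63 ± 0.39, and control replicate 3 stood far above the other control libraries in each, at 123, 67.6 and 44.5 CPM. It was also the highest control library for ELP, for FLA8 at 38.8 CPM, for XTH19 at 36.8 CPM and for PELPK1 at 108 CPM.

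Several loci next to a strongly raised gene were also higher. The set, chosen after the values were seen, was the 38 nuclear protein-coding loci raised at least 16-fold at 20 CPM or more. The next annotated locus within 1000 bases was taken where it was tested, did not overlap, was not in the set itself and averaged at least 1 CPM in control. That last limit, also set after the values were seen, leaves out neighbours that passed the filter on low counts only through heated libraries. Of 9 such loci downstream 8 rose and 1 fell against control, with a median of 2.07, and of 21 upstream 8 rose and 3 fell, with a median of 0.07. Against heat shock 8 of the 9 downstream loci were higher and none lower. Without the limit the downstream counts were 13 raised and 1 lowered of 14, which include such neighbours. HCF152, a plastid RNA-binding protein, starts 345 bases after APX2 and held 68.4, 68.8 and 80.9 CPM in primed heat shock and 19.7, 15.5 and 13.8 CPM in control (2.15 ± 0.13), with 2.52 over heat shock. ARLA1A, a GTPase on the opposite strand, ends 4 bases from HSP15.7 and held 56.5, 56.7 and 58.3 CPM in primed heat shock and 4.57, 5.35 and 4.66 CPM in control (3.55 ± 0.09). RABA2b, another GTPase, itself 1 of the 38, follows HSP17.8 at 246 bases on the same strand and rose by 4.60 ± 0.19. GSTU1, a glutathione transferase, follows HSP17.6B-CI at 526 bases and rose by 2.07 ± 0.19. Of the 9 downstream loci 5 of 6 on the same strand as the raised gene rose, and 3 of 3 on the other. Whether these reads belong to the neighbour or run on past the raised gene was not tested.

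**Figure D5:**
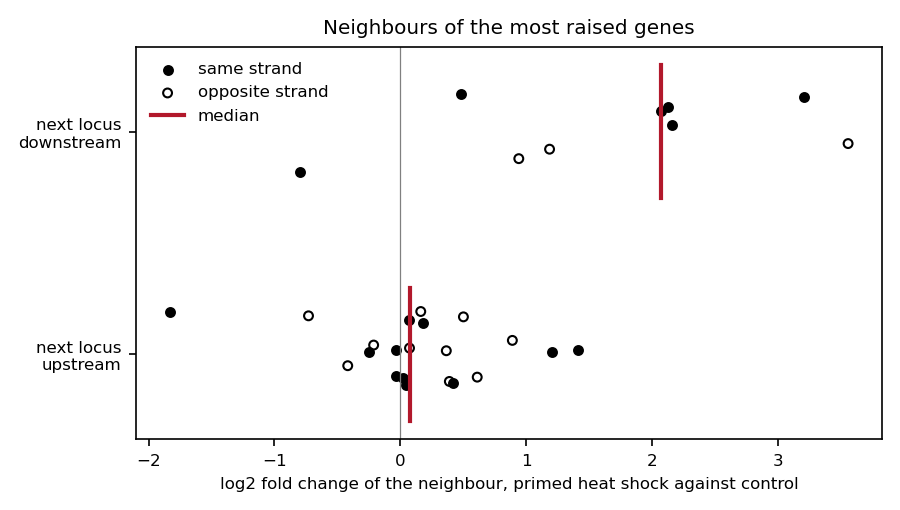
Log2 fold change in primed heat shock against control of the next locus downstream and upstream of 38 strongly raised genes, for neighbours with a control mean of at least 1 CPM, with filled points for the same strand, open points for the opposite strand and a line at the median. The 9 downstream loci have a median of 2.07 and the 21 upstream loci a median of 0.07.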

How the data were processed

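RNA was measured in 12 libraries of 4 groups, taken from the titles and treatment labels. The group labels give 30 min for heat where the general protocol gives 2 h, and the labels were followed. The deposited files give, for each sequence of the reference, an untransformed count of the reads aligned to it, with both mates counted separately. The submitters' processing notes name Bowtie2, SAMtools, DESeq2 and the build TAIR10. Versions, roles and a strand setting are not given in the sources used here. Where a read matched more than 1 sequence, the authors' alignment placed it. Left out were reads that aligned to no entry and 17 ribosomal RNA entries, which held 0.421% to 0.792% of the aligned reads in the 6 libraries of the main comparison.

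Tests used edgeR 4.0.16 in R 4.3.3 on all 12 libraries, with TMM factors, the filter filterByExpr (minimum count 10), robust quasi-likelihood fitting without covariates and Benjamini-Hochberg adjustment over 26159 entries. The coefficient of variation was 0.143. A standard error is the absolute log2 change divided by the square root of F. The edgeR fit was tested on simulated counts with few entries changed, as many up as down. That setting does not test the scaling of data in which many entries change. Alternatives were DESeq2 1.42.0, other scaling, other filters, the replicate block and leaving out each library. Shares used exact permutation tests written out in Python 3.11.15 with numpy 2.4.6 and pandas 2.3.3. Tables used the same tools, and figures also matplotlib 3.10.9.

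Members, the 45 gene lists (687 distinct loci, 672 tested) and the naming rule were chosen with earlier results of these data known. The rule named marked members of each list, the 3 largest called changes per list, and outside the lists the 12 largest in each direction with a symbol, at least 20 CPM and no overlap (3 for organellar genes, and 3 at 5 CPM for other entries). Some further list members were named after their values were seen, as were the neighbour and motif descriptions. Symbols of list members were those written in the lists. Other symbols came from the RefSeq annotation of TAIR10.1, which held 32831 of 33320 nuclear loci.

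The labels tie each replicate number to a harvest date shared by the groups, so the numbers pair the libraries. Primed heat shock and control libraries of the same number deviated from their groups with correlations of 0.0665, 0.0453 and 0.0408. Replicates within both groups differed beyond counting noise (chi-square over its degrees of freedom, 25.1 to 120.5). Separate cultures are not stated for the replicates, and the p-values then cover only their own spread, which may be technical.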

Additional observations from a re-analysis of the deposited data

Results flagged for a closer look

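The following results stood out because primed heat shock and heat shock alone were called in opposite directions against the shared control, and the difference between them was itself called by edgeR. Of all entries 311 did so, 211 up and 100 down with priming. Called changes of opposite sign against a shared control make a called difference very likely, so that difference is not separate evidence. MIPS2, of inositol synthesis, averaged 938 CPM in primed heat shock, 76.5 CPM in heat shock and 107 CPM in control, so primed heat shock lay 3.62 above heat shock on the log2 scale. SYTD, a membrane tether, averaged 47.4, 4.69 and 8.52 CPM in the same order of groups (3.33). LDOX, of anthocyanin synthesis, averaged 21.2, 3.54 and 6.46 CPM (2.58). ELIP1, of light stress, averaged 658, 116 and 178 CPM (2.51). PIP2;3, a water channel, averaged 97.3, 25.8 and 37.8 CPM (1.92), and CCA1, of the clock, 150, 57.7 and 90.5 CPM (1.38). The call of CCA1 in primed heat shock against control was lost with library sizes alone. LHCB1.4, an antenna protein, went down with priming, at 50.5, 172 and 105 CPM (-1.77). HAK5, a potassium transporter, did so at 47.5, 156 and 115 CPM (-1.71), and the transposon entry Chr5_AT5TE58950 at 14.6, 35.8 and 22.7 CPM (-1.29). The adjusted p of heat shock against control was near the threshold for ELIP1, LDOX and HAK5, at 0.0373, 0.0402 and 0.0426 (edgeR). It was 0.017 or less for the other entries named here. Heat shock against control was not run under the alternatives.

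Reads that aligned to no entry lie outside the gene counts. They made up 16.0% ± 1.34 of reads in primed heat shock and 11.5% ± 0.258 in control (SD, n = 3 each), 4.57 percentage points apart (exact two-sided permutation p = 0.1, the smallest possible). Their content was not analysed here.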

How the results depend on the processing

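Demanding a change of at least 2-fold left 4498 raised and 2473 lowered entries against control, 789 and 803 against heat shock and 5114 and 2395 against priming. With library sizes alone the counts were 4834 raised and 10989 lowered against control, 1451 lowered against heat shock (raised 2944), and 14074 and 2397 against priming, with medians of -0.33, 0.12 and 0.57. Upper-quartile factors gave a median of 0.19 against priming, where TMM gave 0.07. DESeq2 called 8809 and 7209 entries against control. Leaving out each library in turn gave 7720 to 7976 raised and 6272 to 6780 lowered against control, 2180 to 3057 and 1851 to 2682 against heat shock, and 8424 to 8842 and 6864 to 7291 against priming. The plastid share difference ranged over 8.10 to 11.5 points and the mitochondrial one over 0.188 to 0.285 points.

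With the harvest date as a replicate block 8483 entries rose and 7192 fell against control, 3304 and 2949 against heat shock and 9063 and 7553 against priming. Of the 183 genes taken by the naming rule, not all of which are described, the block changed the call of 6, APX1 among them, and its exact sign-flip p for both share differences was 0.25, the smallest that 3 dates allow.

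Over all alternatives 147 of these 183 genes kept direction and call, a count that leaves out genes described beyond the rule, such as HSP90-6, ONSEN-g and FLS2, whose changes stand beside their values. With library sizes alone APX1 was -0.01, BZIP60 -0.29, PIF4 -0.26 and HSFA3 -0.17, where the main values were 0.35, 0.09, 0.12 and 0.20. With 1 library left out BZIP60 ranged over -0.02 to 0.21, PIF4 over -0.03 to 0.25 and SIG5 over -0.54 to 0.00 (main -0.23). Scaled within the organelle, atp6-1 was -0.13, atp6-2 -0.02 and cox1 -0.04, where the main values were 0.67, 0.78 and 0.77. The cause was not tested. The noncoding entry At4NC056500 had no read in 2 control libraries, so no fold is given for it. Neighbouring loci were also counted without a minimum control level, an alternative chosen after seeing the data.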
